A study of Mus musculus with 24 samples.

Results

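The 9 genes described here encode the enzymes of heme synthesis that the array measured under these names, Alas1, Alas2, Alad, Uros, Urod, Cpox, Ppox and Fech, together with Slc25a38, a carrier of the inner mitochondrial membrane that brings in the glycine from which heme is built. Members were taken by gene name among the 55681 non-control probes, which gave 10 probes for the 9 genes, of 29531 features tested in all. Alas1 had 2 probes and every other gene had 1. RNA came from the spleen of 2 inbred mouse strains, B10.BR and BALB.K, taken 24 h after the whole body had been irradiated, or from mice left without irradiation. B10.BR mice received 300, 500 or 900 cGy and BALB.K mice 300, 400 or 800 cGy, and both strains had an unirradiated group at 0 cGy. The series calls 900 and 800 cGy myeloablative, meaning that these doses destroy the blood-forming marrow. Each group had 3 arrays, and per the series' design text each array carried RNA of 3 mice combined, so that the spread between replicates and every p-value below measure differences between pools. The labels give no sex or age for the mice, and no genotype beyond the strain.

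Heme synthesis starts in the mitochondrion, where 5-aminolevulinate synthase joins glycine and succinyl-CoA. The housekeeping form of this enzyme is encoded by Alas1 and the form of red cell precursors by the X-linked Alas2, whose mRNA is translated when iron is available. The next steps run in the cytosol, and the last steps, which oxidise the ring and insert iron, run in the mitochondrion again. The mouse spleen is a site of red cell formation throughout life, and its red pulp macrophages break down the heme of old red cells.

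Levels are log2 signals relative to the 75th percentile of the same array, so that 0 is the level of the probe at that percentile. Levels of different genes come from different probes and are not set against each other. Between 66.9% and 77% of an array's probes stood well above background, and the signal at the 75th percentile ran from 700.1 to 1030 intensity units. All 10 probes of the heme genes were well above background on all 24 arrays, none was saturated, and no array lacked a value, so that all 9 genes passed the filter on dim probes. The T cell gene Cd3e and the red pulp macrophage gene Spic, both of the spleen, were well above background on every array, but so was the pancreas enzyme gene Prss2. The Y-linked gene Ddx3y was not detected alike in all groups. It stood well above background in every B10.BR pool and in all 3 BALB.K pools at 800 cGy, but in 1 of 3 BALB.K pools at each lower dose and at 0 cGy. The arrays lay on 3 slides, and no slide held both groups for B10.BR at 900 cGy, BALB.K at 400 cGy or BALB.K at 800 cGy against 0 cGy, or for the unirradiated strains.

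Irradiation was followed by a fall of 8 of the 9 genes and a rise of Alas1, by the brighter of its 2 probes, at every dose in both strains. The second Alas1 probe passed at no dose. In B10.BR 8 genes fell and 1 rose at 300 cGy, where 23.6% of all features fell and 18.5% rose, at 500 cGy, where 26.1% fell and 22.4% rose, and at 900 cGy, where 28.3% fell and 25.9% rose. In BALB.K the counts were again 8 and 1 at 300 cGy, against 24.9% of all features that fell and 21.3% that rose, at 400 cGy, against 26% and 25.5%, and at 800 cGy, against 28.5% and 30.1%. All 3 irradiated arrays lay below all 3 unirradiated arrays for the 8 genes that fell, an ordering met by 29.5%, 32.4% and 33.1% of all features in B10.BR and by 25.4%, 29.1% and 30.6% in BALB.K, doses from low to high. The median log2 change of the 9 genes was -1.80, -1.74 and -1.80 in B10.BR and -2.08, -2.21 and -2.45 in BALB.K, while the median of all features lay between -0.10 and 0.10 at these doses. RNA was measured in whole spleen, where fewer cells of a type and less RNA per cell cannot be told apart. Markers of red cell precursors fell with these genes, as did most markers of B and T cells. Of 8 B cell markers, 8 fell at each dose in B10.BR and 7, 8 and 8 in BALB.K. Of 8 T cell markers, 7 fell at each dose in B10.BR and 6, 7 and 7 in BALB.K. Of 25 measured erythroid markers, 24, 24 and 23 fell in B10.BR from the low to the high dose and 22 fell at each dose in BALB.K. In B10.BR 1 rose at each dose, and in BALB.K 0, 1 and 1 rose. Their summed share of the array's signal was 0.342% to 0.408% at 0 cGy in B10.BR, and 0.113% to 0.211% at 300 cGy, 0.0927% to 0.135% at 500 cGy and 0.0547% to 0.0753% at 900 cGy. In BALB.K the share began at 0.682% to 0.738% without irradiation and was 0.304% to 0.386% at 300 cGy, 0.353% to 0.389% at 400 cGy and 0.313% to 0.345% at 800 cGy. Klf1, which encodes a transcription factor of red cell precursors, was well above background on 1 of the 3 arrays of B10.BR at 900 cGy, and on all arrays of the other groups. Gata1 and Epor, of the same list, were well above background on every array. The mean log2 level of Epor in B10.BR was 3.39 at 0 cGy, then 2.41, 2.75 and 3.02 with rising dose. In BALB.K it was 4.88, then 2.54, 2.87 and 3.45. That of Gata1 was 3.89, then 1.88, 2.08 and 2.02 in B10.BR, and 5.09, then 1.86, 1.87 and 2.62 in BALB.K. The part of a lower number of red cell precursors, or of other cells, in the falls was not tested. Genes of the exocrine pancreas, of which 12 were measured, also differed between groups, but not in the order of dose, and their signal spread widely within groups. All 12 rose in B10.BR at 300 cGy (median 8.26) and at 900 cGy (median 9.65), and none passed at 500 cGy (median 3.14). In BALB.K 0, 0 and 1 rose, with medians of 3.11, -1.15 and 4.19 from the low to the high dose. Their summed signal in B10.BR was 0.000586% to 0.00267% of the array at 0 cGy, 0.0434% to 0.470% at 300 cGy, 0.00143% to 0.136% at 500 cGy and 0.379% to 0.520% at 900 cGy. In BALB.K it was 0.00342% to 0.0885% at 0 cGy, 0.0224% to 0.638% at 300 cGy, 0.00226% to 0.157% at 400 cGy and 0.136% to 0.499% at 800 cGy. The part of pancreas RNA in the results was not tested. With the detection of Ddx3y as a covariate of the fit, all 54 changes of the 9 genes against 0 cGy kept their call. Ddx3y was detected in equally many pools of both groups except at 800 cGy in BALB.K, so that elsewhere this fit could change little.

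**Figure D1:**
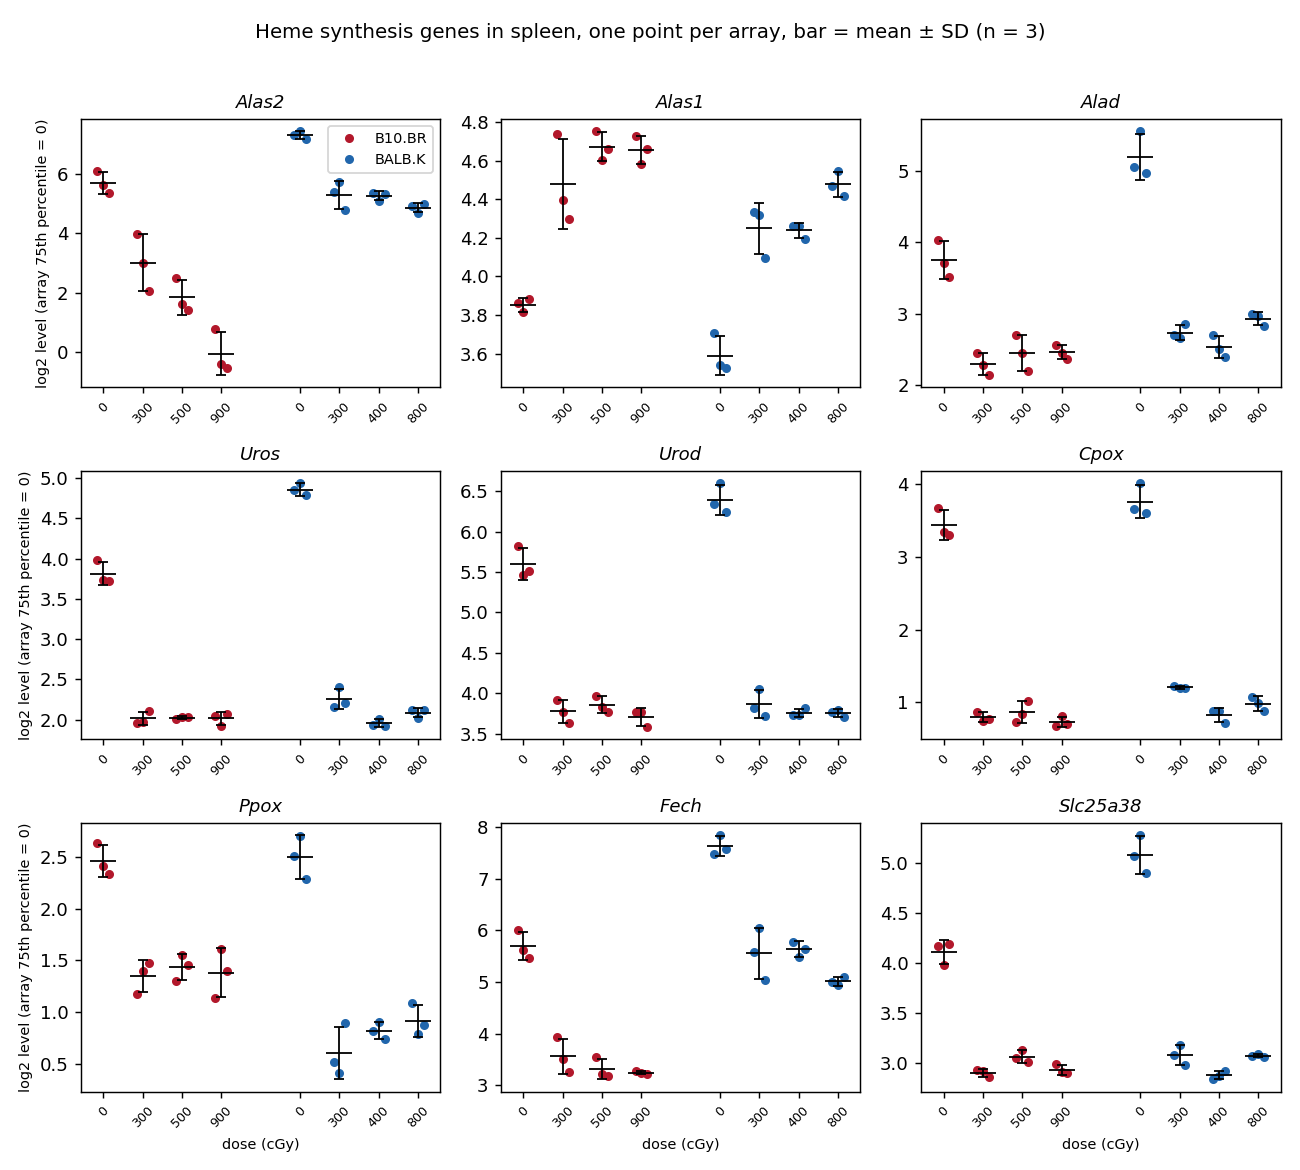
Level of each of the 9 genes on each of the 24 arrays (log2, 75th percentile of the array at 0) against dose in cGy, B10.BR left in red and BALB.K right in blue, with the mean ± SD of 3 arrays in black. Alas1, shown by its brighter probe, is higher at every dose than at 0 cGy, and the other 8 genes are lower, Alas2 in B10.BR with a mean of -0.06 at 900 cGy.

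Alas2, the synthase of red cell precursors, had a lower mean at each higher dose in B10.BR. Its log2 level in B10.BR was 6.10, 5.62 and 5.35 at 0 cGy, 3.98, 2.98 and 2.06 at 300 cGy, 2.50, 1.61 and 1.41 at 500 cGy and 0.77, -0.41 and -0.54 at 900 cGy. No irradiated array reached the unirradiated ones, the arrays at 300 and 500 cGy overlapped, and those at 900 cGy lay below all others. In BALB.K the level was 7.32, 7.44 and 7.17 at 0 cGy, 5.39, 5.71 and 4.77 at 300 cGy, 5.36, 5.10 and 5.34 at 400 cGy and 4.91, 4.69 and 5.0 at 800 cGy. There the arrays at 300 cGy overlapped those at 400 and 800 cGy, and all of them lay below 0 cGy. Against 0 cGy, Alas2 in B10.BR changed by -2.68, -3.85 and -5.75 log2 units (SE 0.41 each, n = 3 against 3, limma, adjusted p = 3.2e-05, 2.66e-07 and 8.98e-10), and at 900 cGy 1.86% of the unirradiated level remained. In BALB.K it changed by -2.02, -2.04 and -2.45 (SE 0.41 each, limma, adjusted p = 4.52e-04, 3.29e-04 and 3.94e-05), which left 18.4% at 800 cGy. With the slide as a block of the fit the change at 400 cGy in BALB.K was -1.89 and no longer passed (limma, adjusted p = 0.056).

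Between successive doses of B10.BR, Alas2 was the only one of the 9 genes to pass the test, at 900 against 500 cGy, where it changed by -1.90 ± 0.41 (SE, n = 3 against 3, limma, adjusted p = 0.0103) and 4.78% of all features passed. That call was lost with the slide as a block (-1.47, adjusted p = 0.232), in a fit on only the arrays compared (-1.90, adjusted p = 0.102) and in the authors' deposited matrix (-1.90, adjusted p = 0.068). It was also lost without replicate 1 at 500 cGy (-1.57, adjusted p = 0.057) or without replicate 3 at 900 cGy (-1.66, adjusted p = 0.067). At 500 against 300 cGy none of the 9 genes passed, where 1.93% of all features did, and Alas2 differed by -1.17 with a 95% interval of -2.02 to -0.31 (limma, adjusted p = 0.147). For BALB.K the Alas2 steps were -0.02 (95% interval -0.87 to 0.83) at 400 against 300 cGy and -0.40 (-1.25 to 0.45) at 800 against 400 cGy. Other genes passed in BALB.K. Uros fell by 0.30 at 400 against 300 cGy (limma, adjusted p = 0.045), a call lost under 5 of the 6 fits that left out 1 array, in a step where 4.88% of all features passed. Fech fell by 0.63 at 800 against 400 cGy (limma, adjusted p = 0.041), a call lost under all 6 such fits, in a step where 18.8% of all features passed.

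**Figure D2:**
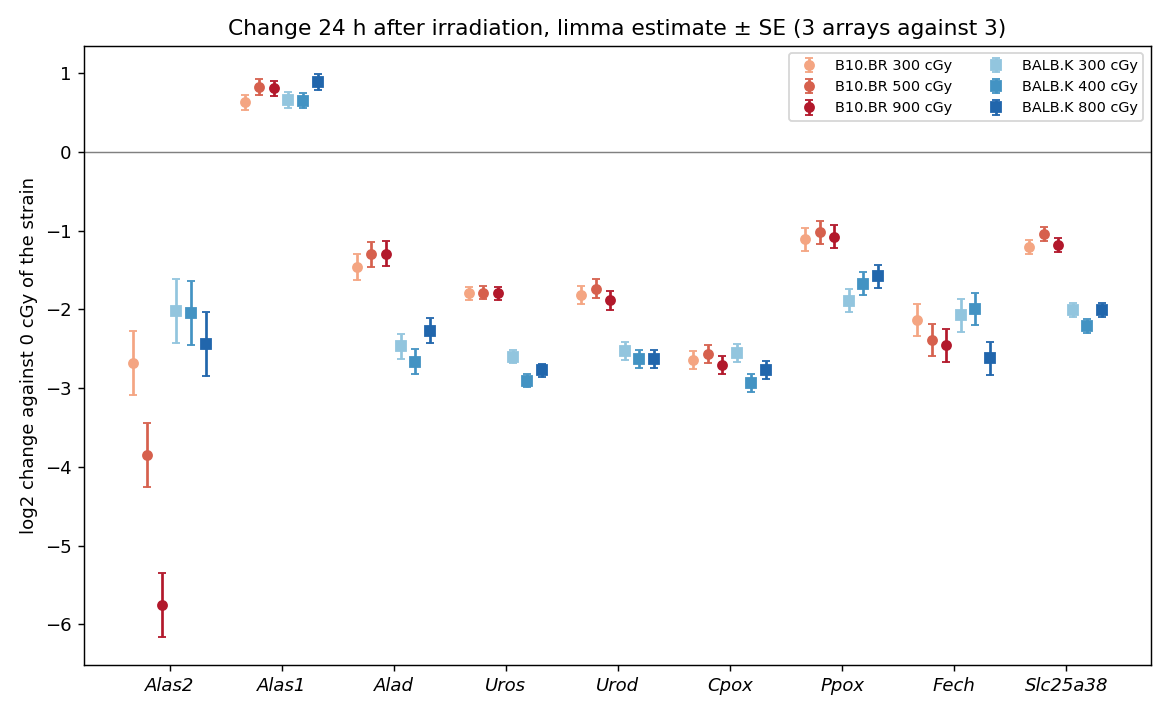
Log2 change of the 9 genes against 0 cGy of the same strain, limma estimate ± SE of 3 arrays against 3, with B10.BR as circles in red shades and BALB.K as squares in blue shades, darker for higher doses. The Alas2 estimates in B10.BR step down from -2.68 to -3.85 and -5.75, and the 6 Alas1 estimates lie between 0.63 and 0.89.

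Alas1, the synthase that all cells use, rose on the brighter of its 2 probes. In B10.BR its level was 3.86, 3.81 and 3.88 at 0 cGy, 4.74, 4.40 and 4.30 at 300 cGy, 4.75, 4.60 and 4.66 at 500 cGy and 4.73, 4.58 and 4.66 at 900 cGy. In BALB.K it was 3.71, 3.54 and 3.52 at 0 cGy, 4.33, 4.32 and 4.1 at 300 cGy, 4.26, 4.26 and 4.19 at 400 cGy and 4.47, 4.55 and 4.42 at 800 cGy. All irradiated arrays of a strain lay above its unirradiated arrays, an ordering met by 22.5%, 26.4% and 30.9% of all features in B10.BR and by 21.6%, 28.7% and 34% in BALB.K, doses from low to high. The changes were 0.63, 0.82 and 0.80 in B10.BR and 0.66, 0.65 and 0.89 in BALB.K (SE 0.10 each, limma, adjusted p between 3.2e-07 and 4.92e-05), or 1.54-fold to 1.85-fold, and none of the steps between doses passed. The second probe, whose position in the mm9 build starts 488 bases from the first, did not pass at any dose. Its changes were 0.20, 0.29 and 0.23 in B10.BR and -0.36, 0.03 and 0.24 in BALB.K (SE 0.28 each, limma, adjusted p between 0.327 and 0.943). The unirradiated BALB.K arrays spread widely on this probe, at -0.51, 0.65 and 0.42. With the mean of both probes Alas1 no longer passed in BALB.K at 300 cGy (0.15, adjusted p = 0.471) and at 400 cGy (0.34, adjusted p = 0.080), so that its rise rests on the brighter probe. Both probes lie on the minus strand of mm9 chromosome 9, the brighter at chr9:106136284-106136343 and the other at chr9:106135796-106135855. Macrophage markers moved with the rise of Alas1, 14 of 14 rising at each dose in B10.BR and 14, 14 and 13 in BALB.K from the low to the high dose. Of 7 platelet markers, 6 rose at each dose in B10.BR and 3, 5 and 7 in BALB.K. The part of these cells in the rise of Alas1 was not tested.

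**Figure D3:**
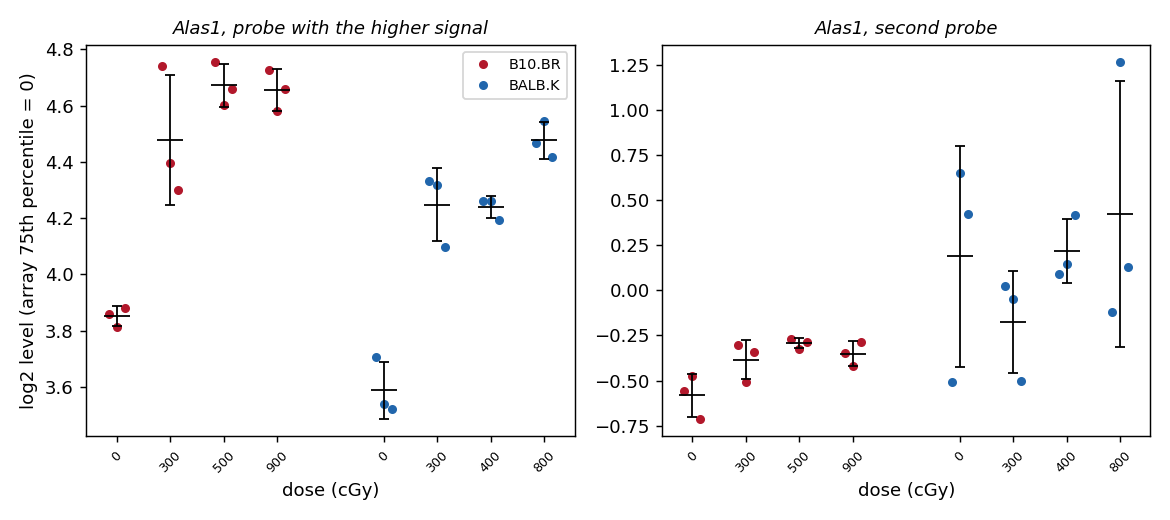
Log2 level of Alas1 on each array by its brighter probe (left) and its second probe (right) against dose in cGy, B10.BR in red and BALB.K in blue, mean ± SD of 3 arrays in black. The unirradiated arrays lie lowest on the brighter probe in both strains, whereas the second probe spreads from -0.51 to 0.65 in unirradiated BALB.K.

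The promoters of the 2 synthase genes, and of 2 other genes that fell, are shown for the short words that erythroid and housekeeping factors are known to bind. RefSeq windows (GRCm38.p6, 250 bases before to 50 after a start) were at hand for 8 of the 9 genes, in 11 windows. The words of GATA1, the factor of red cell precursors, were searched as AGATAA and as AGATAG, and likewise as TGATAA and as TGATAG, on either strand. They occurred in 3 of the 11 windows, those of Alas2, Cpox and 1 of the 2 Uros windows, and in 29.8% of all 32851 windows. These words were thus no more common in the windows of these genes than in all windows. The windows of Alad, Urod, Ppox and Slc25a38, which also fell, and the other Uros window held none. The NRF1 word, on either strand, which the housekeeping factor NRF1 binds, occurred in both Alas1 windows and in 1 window of Uros, and in 4.6% of all windows. The 2 Alas1 windows overlap and hold the same 2 NRF1 words, so that they do not count as separate matches. The GC box GGGCGG was in 35.7% of all windows. Among the windows of these genes it was absent only from that of Cpox, 1 of Alas1 and 1 of Uros. The letters CCNCNCCC of a CACCC box were in 49.5% of all windows, and here absent only from 1 window of Uros. The E-box CACGTG was in 7.15% of all windows, and here in both Alad windows, 1 window of Uros and that of Urod. Capitals mark the GATA words in the windows of Alas2 (chrX:150547167-150547466, plus strand), Cpox (chr16:58669958-58670257, plus strand) and Uros (chr7:133702451-133702750, minus strand), and the NRF1 words in that of Alas1 (chr9:106247905-106248204, minus strand).
Alas2: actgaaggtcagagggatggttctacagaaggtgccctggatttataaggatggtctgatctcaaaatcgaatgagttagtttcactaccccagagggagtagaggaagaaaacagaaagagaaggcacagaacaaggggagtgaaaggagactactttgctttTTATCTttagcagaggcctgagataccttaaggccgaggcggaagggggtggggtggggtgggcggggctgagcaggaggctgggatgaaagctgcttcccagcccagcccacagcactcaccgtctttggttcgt
Cpox: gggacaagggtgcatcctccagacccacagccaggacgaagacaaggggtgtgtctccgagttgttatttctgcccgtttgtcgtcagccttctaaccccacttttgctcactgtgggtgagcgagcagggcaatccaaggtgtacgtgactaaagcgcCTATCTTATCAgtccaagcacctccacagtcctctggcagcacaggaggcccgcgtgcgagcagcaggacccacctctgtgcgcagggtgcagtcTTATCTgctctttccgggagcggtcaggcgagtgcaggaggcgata
Uros: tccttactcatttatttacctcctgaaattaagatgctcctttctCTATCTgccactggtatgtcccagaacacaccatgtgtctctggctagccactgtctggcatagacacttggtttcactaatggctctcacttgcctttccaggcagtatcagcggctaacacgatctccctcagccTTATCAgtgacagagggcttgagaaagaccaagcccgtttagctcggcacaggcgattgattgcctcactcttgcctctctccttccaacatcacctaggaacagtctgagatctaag
Alas1: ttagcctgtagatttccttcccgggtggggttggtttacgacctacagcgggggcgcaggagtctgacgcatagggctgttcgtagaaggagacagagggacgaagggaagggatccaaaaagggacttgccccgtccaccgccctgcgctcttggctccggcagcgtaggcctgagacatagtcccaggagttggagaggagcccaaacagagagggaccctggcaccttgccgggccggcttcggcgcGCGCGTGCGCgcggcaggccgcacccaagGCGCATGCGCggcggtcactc
The GATA words in capitals all lie on the other strand. That of Alas2 begins 86 bases before the start. In Cpox 2 of the 3 words overlap, beginning 91 and 86 bases before the start, and the other begins at base 5 after it. These matches are descriptions of letters and say nothing of binding in these spleens.

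Slc25a38, the glycine carrier, and Alad, which makes the pyrrole porphobilinogen from aminolevulinate, fell at every dose, and no step between doses passed for either. Slc25a38 in B10.BR was at 4.17, 3.98 and 4.19 at 0 cGy, 2.93, 2.92 and 2.86 at 300 cGy, 3.05, 3.14 and 3.01 at 500 cGy and 2.99, 2.91 and 2.90 at 900 cGy. In BALB.K it was at 5.08, 5.28 and 4.90 at 0 cGy, 3.08, 3.18 and 2.98 at 300 cGy, 2.84, 2.88 and 2.92 at 400 cGy and 3.07, 3.09 and 3.06 at 800 cGy. The irradiated arrays of both strains thus shared a range, while the unirradiated B10.BR arrays lay below those of BALB.K. The changes of Slc25a38 were -1.21, -1.05 and -1.18 in B10.BR and -2.0, -2.21 and -2.01 in BALB.K (SE 0.09 each, limma, adjusted p at most 1.51e-08). Alad averaged 3.75 ± 0.26 at 0 cGy and between 2.29 and 2.46 at the 3 doses in B10.BR, and 5.2 ± 0.32 at 0 cGy and between 2.53 and 2.93 at the 3 doses in BALB.K (SD, n = 3). Its changes were -1.46, -1.30 and -1.29 in B10.BR and -2.47, -2.67 and -2.27 in BALB.K (SE 0.16 each, limma, adjusted p at most 1.6e-06).

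Uros and Urod, which close the ring of uroporphyrinogen III and then trim its side chains, moved almost alike. Uros in B10.BR was at 3.98, 3.73 and 3.73 at 0 cGy, 1.96, 1.97 and 2.11 at 300 cGy, 2.0, 2.03 and 2.03 at 500 cGy and 2.05, 1.92 and 2.07 at 900 cGy. In BALB.K it was at 4.85, 4.94 and 4.79 at 0 cGy, 2.16, 2.40 and 2.21 at 300 cGy, 1.94, 2.01 and 1.91 at 400 cGy and 2.12, 2.02 and 2.12 at 800 cGy. All irradiated arrays of a strain lay below its arrays at 0 cGy, and the 3 irradiated groups of B10.BR overlapped each other. In BALB.K the step of -0.30 at 400 against 300 cGy passed, a call kept in 11 of 22 alternative fits. The step of 0.13 at 800 against 400 cGy did not pass. The Uros changes were -1.80, -1.79 and -1.80 in B10.BR and -2.60, -2.91 and -2.77 in BALB.K (SE 0.08 each, limma, adjusted p at most 2.79e-11). Urod averaged 5.60 ± 0.20 at 0 cGy and between 3.71 and 3.86 at the doses in B10.BR, and 6.39 ± 0.18 at 0 cGy and between 3.76 and 3.87 in BALB.K (SD, n = 3). Its changes were -1.82, -1.74 and -1.89 in B10.BR and -2.53, -2.63 and -2.63 in BALB.K (SE 0.12 each). Over the 6 changes against 0 cGy, Uros and Urod differed by a mean of 0.11 log2 units, the least of any pair among the 9 genes, whereas Alas1 and Alas2 differed by 3.87. The 3 changes of a strain share its unirradiated arrays.

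The 3 last enzymes fell too. Cpox, which oxidises coproporphyrinogen, averaged 3.44 ± 0.20 at 0 cGy and between 0.73 and 0.86 at the doses in B10.BR, and 3.75 ± 0.23 at 0 cGy and between 0.82 and 1.20 in BALB.K (SD, n = 3). Its changes, -2.65, -2.57 and -2.71 in B10.BR and -2.55, -2.93 and -2.77 in BALB.K (SE 0.11 each), were close in both strains. Ppox, which oxidises the ring to protoporphyrin, changed by -1.11, -1.02 and -1.08 in B10.BR and by -1.89, -1.68 and -1.58 in BALB.K (SE 0.15 each, limma, adjusted p at most 1.05e-05). It averaged 2.46 ± 0.15 at 0 cGy in B10.BR and 2.50 ± 0.21 in BALB.K, and its irradiated arrays lay between 1.14 and 1.61 in B10.BR and between 0.41 and 1.09 in BALB.K. Fech, which inserts the iron, was at 6.01, 5.62 and 5.47 at 0 cGy, 3.93, 3.50 and 3.26 at 300 cGy, 3.54, 3.22 and 3.17 at 500 cGy and 3.28, 3.24 and 3.21 at 900 cGy in B10.BR. In BALB.K it was at 7.48, 7.85 and 7.58 at 0 cGy, 5.59, 6.04 and 5.05 at 300 cGy, 5.78, 5.49 and 5.65 at 400 cGy and 5.0, 4.93 and 5.11 at 800 cGy. Every BALB.K array of a dose lay above every B10.BR array of that dose at 0 and 300 cGy. The Fech changes were -2.14, -2.39 and -2.46 in B10.BR and -2.08, -2.0 and -2.62 in BALB.K (SE 0.21 each, limma, adjusted p at most 2.13e-07).

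Before irradiation, the spleen of B10.BR had lower levels of 7 of the 9 genes than that of BALB.K, with 30.3% of all features lower and 23.2% higher. Fech was lower by the most, with a difference of -1.94 ± 0.21 between means of 5.70 and 7.64 (SE, n = 3 against 3, limma, adjusted p = 5.27e-07), followed by Alas2 at -1.62 ± 0.41 (adjusted p = 0.00271), Alad at -1.45 ± 0.16, Uros at -1.05 ± 0.08, Slc25a38 at -0.97 ± 0.09 and Urod at -0.80 ± 0.12. Cpox differed by -0.32 ± 0.11 with overlapping arrays (limma, adjusted p = 0.0265), a call kept in 12 of 21 alternative fits. It was lost with the slide as a block (-0.08, adjusted p = 0.827), a random slide block (-0.27, 0.112), the replicate block (-0.30, 0.092), the Y-linked covariate (-0.31, 0.073) and only the arrays compared (-0.32, 0.175). It was also lost without replicate 2 of BALB.K (0.174) or replicate 2 (0.097) or 3 (0.115) of B10.BR, and the sign flipped to 0.0027 under median scaling. Alas1 was higher in B10.BR by 0.26 ± 0.10 (limma, adjusted p = 0.0326), but lower by its second probe (-0.77, adjusted p = 0.031), and its sign flipped under spike-in scaling (-0.41) and with the mean of both probes (-0.25). The Alas1 call was kept in 10 of 21 alternative fits. It was lost with quantile normalization (0.17, adjusted p = 0.095), the slide as a block (0.24, 0.377), a random slide block (0.27, 0.071), the Y-linked covariate (0.19, 0.172) and only the arrays compared (0.26, 0.076). Leaving out replicate 2 (0.092) or 3 (0.099) of BALB.K, or replicate 1 (0.071) or 3 (0.084) of B10.BR, ended it too. Ppox did not pass, with a difference of -0.04 and a 95% interval of -0.34 to 0.27, but it did under spike-in scaling (-0.71, limma, adjusted p = 0.023). The erythroid markers moved the same way, 23 of 25 being lower in B10.BR with a median of -1.30, and so did all 11 proliferation genes, with a median of -1.12. Their part in the differences was not tested. No slide held both unirradiated strains, so that slide and strain are separated only through other groups.

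The change itself differed between the strains for 5 genes at 300 cGy, the dose that both received. The test took the B10.BR change minus the BALB.K change, and 5.66% of all features had a positive difference and 5.78% a negative one that passed. It was positive for Alad (1.0 ± 0.23, adjusted p = 0.0078), Uros (0.81 ± 0.12, adjusted p = 3.45e-04), Urod (0.70 ± 0.16, adjusted p = 0.0101), Ppox (0.78 ± 0.21, adjusted p = 0.021) and Slc25a38 (0.79 ± 0.12, adjusted p = 5.74e-04), all by limma with the SE. These 5 genes fell less in B10.BR. The call of Ppox was lost with the slide as a block (0.87, adjusted p = 0.053), with median scaling (0.58, adjusted p = 0.091), with spike-in scaling (1.20, adjusted p = 0.059) and in a fit on only the arrays compared (adjusted p = 0.096). It was also lost without replicate 2 of BALB.K at 0 cGy (adjusted p = 0.059) or 300 cGy (0.053), and without replicate 3 of B10.BR at 0 cGy (0.062) or 300 cGy (0.053). That of Urod was lost with median scaling (0.51, adjusted p = 0.058) and on only the arrays compared (adjusted p = 0.097), and that of Alad on only the arrays compared (adjusted p = 0.064). The intervals of the other 4 genes include 0, with -0.33 to 0.26 for Alas1, -1.86 to 0.55 for Alas2, -0.43 to 0.25 for Cpox and -0.67 to 0.55 for Fech. At the highest doses, which were 900 cGy in B10.BR and 800 cGy in BALB.K and so differ, 5 genes passed again, against 6.43% of all features with a positive and 6.39% with a negative difference. Alad, Uros, Urod and Slc25a38 were positive, at 0.98 ± 0.23, 0.98 ± 0.12, 0.75 ± 0.16 and 0.83 ± 0.12. Alas2 was negative, at -3.30 ± 0.57 (SE, limma, adjusted p = 9.57e-04). With the slide as a block the Alas2 difference was -2.81 and did not pass (adjusted p = 0.224), and Alad, Urod and Slc25a38 no longer passed either. Spike-in scaling ended the calls of Alad, Uros, Urod and Slc25a38, with differences of 1.03, 1.03, 0.80 and 0.88. Of the 25 erythroid markers, 7 had a positive and 2 a negative difference that passed at 300 cGy (median -0.11), and 5 had a positive and 9 a negative one at the highest doses (median -0.20). All 11 measured proliferation genes had a positive difference that passed, with a median of 1.75 at 300 cGy and of 1.19 at the highest doses. None of the 12 exocrine pancreas genes passed, with medians of 4.95 and 5.17. The part of these groups of cells in the strain differences was not tested.

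**Figure D4:**
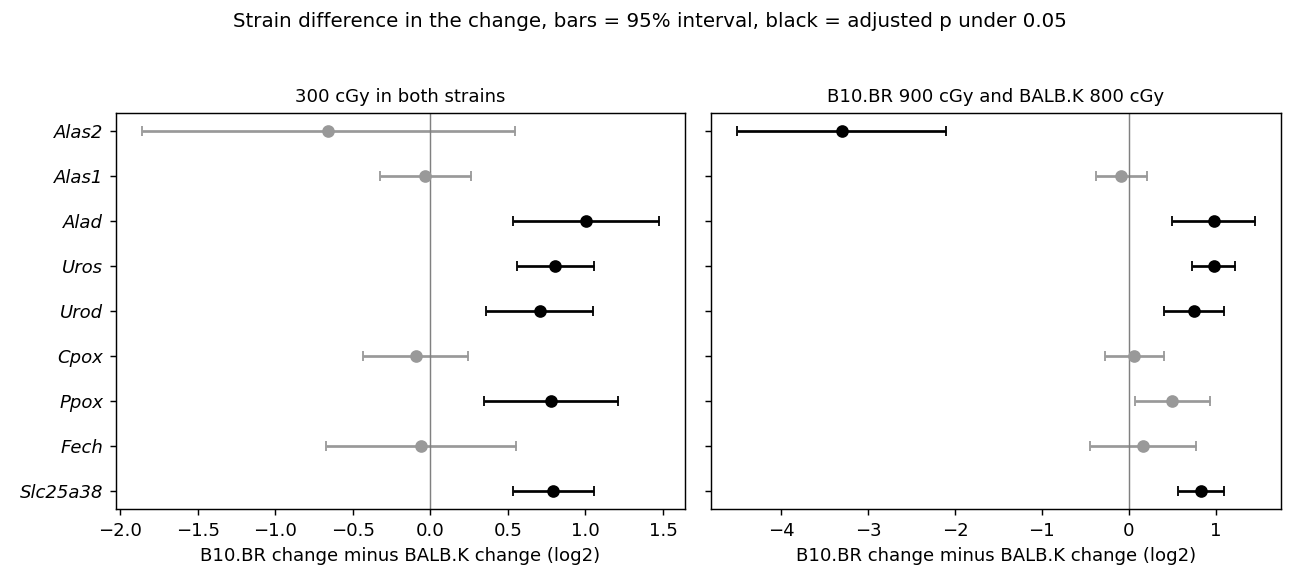
B10.BR change minus BALB.K change (log2) for each of the 9 genes with its 95% interval, at 300 cGy (left) and at 900 cGy in B10.BR and 800 cGy in BALB.K (right, on another scale), black where the adjusted p was under 0.05 and grey otherwise. Alas2 lies at -3.30 on the right, and Alad, Uros, Urod and Slc25a38 lie to the right of 0 in both plots.

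The genes that supply iron for the last step changed in part. Of 25 genes for iron uptake, mitochondrial iron import and iron-sulfur clusters, 15 fell at each dose in B10.BR, with 3, 4 and 5 rising, and 16, 17 and 17 fell in BALB.K, with 2, 3 and 3 rising, doses from low to high. Of all features, 23.6%, 26.1% and 28.3% fell in B10.BR and 18.5%, 22.4% and 25.9% rose, against 24.9%, 26% and 28.5% that fell in BALB.K and 21.3%, 25.5% and 30.1% that rose, so that a larger share of the iron genes fell and a smaller share rose. The median change was -0.40, -0.36 and -0.44 in B10.BR and -0.70, -0.66 and -0.77 in BALB.K. Tfr2 and Tfrc, the transferrin receptors, fell, with changes of -4.96 and -4.35 in B10.BR at 900 cGy and of -6.30 and -5.16 in BALB.K at 800 cGy. Slc25a37, the mitochondrial iron importer mitoferrin 1, fell, with changes of -3.53 and -3.59 at those doses. Abcb10, a transporter of the inner mitochondrial membrane needed for heme synthesis in red cell precursors, fell as well, with changes of -2.68 and -3.89. Steap4, a metalloreductase, rose by 2.05 and 1.65. The ferritin light chain gene Ftl1, which stores iron, had changes of -0.06 and -0.16 that did not pass. Of 11 measured proliferation genes all fell at every dose, and of 12 other mitochondrial genes the median change lay between -0.39 and -0.10. Under spike-in scaling only 7, 7 and 8 of the iron genes fell in B10.BR, 5 rose in B10.BR at 300 cGy and 1 rose in BALB.K at 300 cGy. With the slide as a block 1 rose at each dose in BALB.K, with only the arrays compared 1 rose in BALB.K at 300 cGy, and with quantile normalization 5 rose in B10.BR at 300 cGy and in BALB.K at 400 and 800 cGy.

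Of 23 other genes of the heme pathway and of heme handling, 11, 9 and 9 fell in B10.BR and 8, 9 and 10 rose, and 11, 11 and 12 fell in BALB.K and 7, 6 and 9 rose. The shares of all features given above for the iron genes apply here too, and both the falling and the rising share of these 23 genes exceeded them except for the rise at 400 cGy in BALB.K, which was close to it. Under spike-in scaling 5 fell in B10.BR at 300 cGy and 4 rose in BALB.K at 300 cGy, with only the arrays compared 4 rose there, and with the slide as a block 3, 3 and 4 rose in BALB.K. Slc6a9, a glycine transporter of the cell surface, fell, with changes of -2.24, -1.95 and -1.69 in B10.BR and of -3.18, -3.16 and -3.16 in BALB.K. Fam210b, a mitochondrial protein of red cell precursors, fell, with a change of -2.07 at 900 cGy in B10.BR and of -2.60 at 800 cGy in BALB.K. Tspo2, an erythroid membrane protein, fell, with changes of -3.75, -4.61 and -5.80 in B10.BR and of -3.91, -4.17 and -4.25 in BALB.K. Hmox1, the heme oxygenase that breaks heme down, rose by 1.78, 1.94 and 2.15 in B10.BR and by 1.29, 1.63 and 1.85 in BALB.K. The biliverdin reductase gene Blvra, which acts after it, rose by 1.33 and 0.83 at the highest doses.

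**Figure D5:**
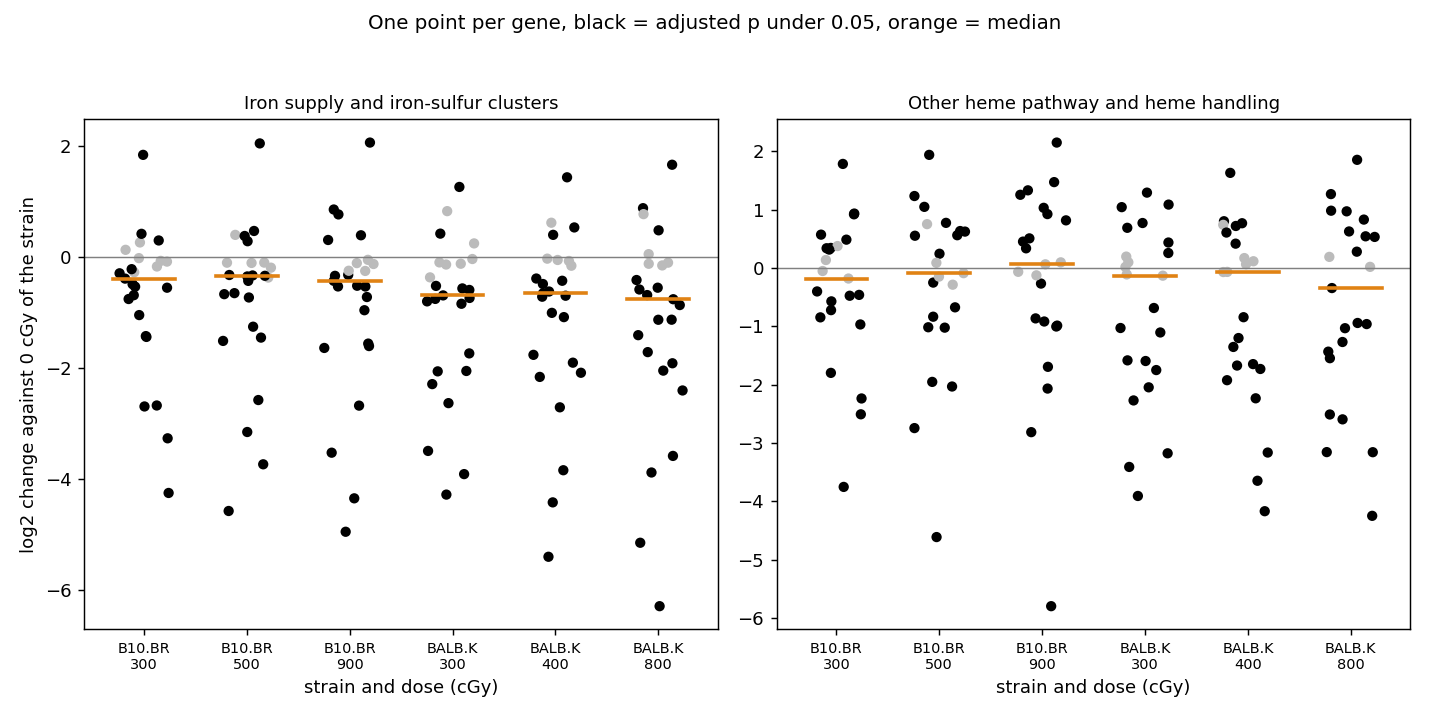
Log2 change against 0 cGy of the strain for 25 iron supply genes (left) and 23 other heme pathway and handling genes (right), 1 point per gene at each strain and dose in cGy, black where the adjusted p was under 0.05, orange line at the median. The lowest point of the left plot is Tfr2 in BALB.K at 800 cGy, at -6.30, and that of the right plot is Tspo2 in B10.BR at 900 cGy, at -5.80.

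Likeness was searched only among the 19825 features with a RefSeq symbol. By the mean absolute difference over the 6 dose changes, the one most like Alas2 was the alpha globin pseudogene Hba-ps4 (0.16). Zdhhc22 (0.21) and 1700062C10Rik (0.57) followed. Those nearest to Slc25a38 were Stradb (0.07) and Prdx2 (0.10), a peroxiredoxin abundant in red cells. Urod and Uros were among the nearest of each other, beside Ubac1 for Uros (0.11) and Zfhx2os (0.09) and H2al1a (0.09) for Urod. The nearest was Bag2 to Alad (0.11), Dyrk3 to Cpox (0.22), Vmn1r-ps84 to Ppox (0.03) and Gja3 to Fech (0.13). Whether the genes near a member share a cell type with it was not tested. The nearest to Alas1 were Armcx3 (0.04), Tmem176b (0.04) and Cpeb2 (0.04), which rose.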

How the data were processed

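Spleen RNA was measured on 24 one-colour Agilent arrays. The deposited intensity values are background-subtracted and come from Agilent Feature Extraction, version 10.5.1.1 per the submitters' notes. Per the file headers, probe positions are in mm9. The authors' deposited matrix holds log2 values, centred per probe, and served as an alternative within a strain. Its normalization was not stated in the labels or headers. RNA carried Cy3, per the labels' protocols.

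Here log2 of the processed signal minus the array's 75th percentile was used. Outlier-marked spots were left out, and probes well above background on all 3 arrays of at least 1 group were kept (42318 of 55681). A gene was represented by its probe of highest mean level. Group means over all 24 arrays were fitted with limma 3.58.1 in R 4.3.3, with Benjamini-Hochberg adjustment per comparison over 29531 features at 0.05, two-sided, in 13 comparisons. Names followed RefSeq by accession, symbol or synonym. The steps were tested on simulated data. Members and gene lists were chosen with earlier results of these data known. The text names all members, and of each list up to 6 genes by the size of their change. It also names Steap4, Ftl1 and Blvra, chosen after their values were seen. Further named are the 3 features closest to a member over the 6 dose changes, among features with a RefSeq symbol. Some genes that these rules name are not reported here. In all, 17 alternatives were tried. The number of arrays limits the precision.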

Additional observations from a re-analysis of the deposited data

Results flagged for a closer look

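The following results stood out because the change after irradiation differed between the strains by a test of the difference itself, the B10.BR change minus the BALB.K change in log2 units (limma, SE, 3 arrays in each of the 4 groups of a test). At 300 cGy, Alad differed by 1.0 ± 0.23, Uros by 0.81 ± 0.12, Urod by 0.70 ± 0.16, Ppox by 0.78 ± 0.21 and Slc25a38 by 0.79 ± 0.12, each having fallen less in B10.BR. At 900 cGy in B10.BR and 800 cGy in BALB.K, which are not the same dose, Alas2 differed by -3.30 ± 0.57 and had fallen further in B10.BR. There Alad differed by 0.98 ± 0.23, Uros by 0.98 ± 0.12, Urod by 0.75 ± 0.16 and Slc25a38 by 0.83 ± 0.12. The unirradiated level of Alas2, Alad, Uros, Urod and Slc25a38 was lower in B10.BR than in BALB.K. That of Ppox differed by -0.04 in the main fit and by -0.71 with spike-in scaling. With the slide as a block the Alas2 difference at the highest doses was -2.81 (adjusted p = 0.224), and those of Alad, Urod and Slc25a38 no longer passed there. Spike-in scaling ended the calls of Alad, Uros, Urod and Slc25a38 at the highest doses. At 300 cGy the call of Ppox was lost in 8 of 27 alternative fits, that of Urod in 2 and that of Alad in 1.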

How the results depend on the processing

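The 54 changes of the 9 genes against 0 cGy kept their direction in all 1188 recomputed values, and 1185 of these kept the call. The 3 lost calls were Alas1 in BALB.K at 300 and 400 cGy with the mean of its probes and Alas2 in BALB.K at 400 cGy with the slide as a block. Among the 63 other results, 74 of 1467 recomputed values changed their call, 62 losing and 9 gaining it. The 3 that reversed were differences between the unirradiated strains, Cpox with median scaling (0.0027, adjusted p = 0.987) and Alas1 with spike-in scaling (-0.41) and with the mean of its probes (-0.25). The causes were not tested, except that a fit on only the arrays compared holds fewer arrays. In B10.BR at 500 against 300 cGy, Alas2 passed with the replicate block (-1.17, adjusted p = 0.014).

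Counts of the 9 genes moved at 400 against 300 cGy in BALB.K (main count 1) to 0 with quantile normalization, spike-in scaling, no filter, every probe on its own, only the arrays compared and the deposited matrix, to 3 with median scaling and to 2 with an intensity trend. At 800 against 400 cGy (main 1) they were 0 with spike-in scaling, no filter, the Y-linked covariate and the deposited matrix, 3 with normexp and 2 with only the arrays compared and with the replicate block. At 500 against 300 cGy in B10.BR (main 0) the replicate block gave 1. At 900 against 500 cGy (main 1) only the arrays compared, the slide block and the deposited matrix gave 0. The strain difference at 300 cGy (main 5) had 3 with median scaling and 2 with only the arrays compared, and that at the highest doses (main 5) had 1 with spike-in scaling and 1 with the slide block.

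Counts of all features moved too. Spike-in scaling gave 8892 (main 13648) in BALB.K at 300 cGy and 7921 (main 12426) in B10.BR at 300 cGy, and only the arrays compared gave 8116 in the first. At 400 against 300 cGy (main 1440) median scaling gave 4899, spike-in scaling 722, only the arrays compared 2, the slide block 2346 and the deposited matrix 520. Spike-in scaling gave 2545 at 800 against 400 cGy (main 5564). At 500 against 300 cGy (main 570) median scaling gave 369, spike-in scaling 14, no filter 364, only the arrays compared 0, the slide block 1199, the replicate block 1123, the Y-linked covariate 931 and the deposited matrix 240. At 900 against 500 cGy (main 1411) spike-in scaling gave 61, only the arrays compared 237 and the slide block 734. The slide block gave 5826 between unirradiated strains (main 15785). For the strain difference at 300 cGy (main 3378) spike-in scaling gave 2016 and only the arrays compared 914, and at the highest doses (main 3788) spike-in scaling gave 693, the slide block 437 and a random slide block 1402.

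Leaving out 1 array kept 9 of 9 genes at every dose against 0 cGy. It gave 0 to 1 genes and 265 to 2310 features at 400 against 300 cGy, 0 genes and 3195 to 4802 features at 800 against 400 cGy, 104 to 1027 features at 500 against 300 cGy, 0 to 1 genes and 604 to 1300 features at 900 against 500 cGy, and 1968 to 4732 features for the strain difference at 300 cGy. Spike-in scaling shifted the median of all features by 0.31 to 0.37 at 800 cGy in BALB.K and at the doses of B10.BR. Between unirradiated strains it shifted the median by -0.68, where median scaling shifted it by 0.32. Median scaling shifted BALB.K at 300 cGy by 0.17. The share of calls that were higher became 75.1% (main 51.4%) at 800 cGy in BALB.K, 85.4% (43.9%), 78.6% (46.2%) and 77.6% (47.7%) at the B10.BR doses, and 6.1% (43.3%) between strains with spike-in scaling. Residuals of same-numbered arrays correlated above 0.1 in all 3 pairs in 1 comparison, B10.BR at 900 against 500 cGy (0.21, 0.12 and 0.24), where the block changed no call of the 9 genes.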
